A study of Mus musculus with 8 samples.

Results

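The embryonic and adult globin genes of the mouse were followed in Kdm6b-null and in wild type gonads. They are Hbb-y, Hbb-bh1 and Hba-x, which are used in the embryo, and Hba-a1, Hba-a2, Hbb-bt and Hbb-bs, which are the genes of fetal and adult red cells, the alpha pair being used in the embryo as well. They were taken by name, and all 7 were among the 48440 genes of the deposited tables. Polyadenylated RNA was sequenced from gonads collected at embryonic day 11.5, when XY gonads begin to take the testis path. The 4 groups were XY Kdm6b-null, XY wild type, XX Kdm6b-null and XX wild type, with 2 libraries each, and each library pooled 2 pairs of gonads from untreated embryos. Kdm6b encodes a demethylase of histone H3, and the mutant embryos are labelled as null for it. The sources used here give neither the strain nor the part of Kdm6b that is deleted. The labels name pre-Sertoli cells for XY and pre-granulosa cells for XX, but no sorting is described, so blood held in the tissue may have been sequenced with it. Whether pools of 1 group share litters is not stated, so p-values measure only the spread between these pools, which may be technical.

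Haemoglobin carries oxygen in red blood cells and is built from alpha-type and beta-type globin chains around haem. In the mouse embryo the first red cells come from the yolk sac and use the embryonic genes. The fetal liver then releases red cells that use the adult genes. In each cluster the embryonic genes lie nearer than the adult genes to a set of distant enhancers, and globin transcription depends on these and on the factors GATA1 and KLF1.

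The libraries held 19107103 to 19828638 counts on genes, and a value of 0 allowed up to 3 counts, worth 2.91 to 3.09 normalized counts. A normalized count is the count of a gene divided by 1 size factor per library. The XY and XX tables were normalized separately. Kdm6b stood at 1238 and 1037 normalized counts in XY null libraries, against 3399 and 3181 in XY wild type libraries. In XX it stood at 1249 and 1125 in null libraries, against 2218 and 2796 in wild type libraries. The 6 somatic gonad markers (Gata4, Nr5a1, Wt1, Lhx9, Emx2, Tcf21) were detected in every library and summed to 8790.1 to 15882 normalized counts. One library stood apart. XX wild type replicate 1 held 15224 normalized counts summed over 8 liver and yolk sac genes (Afp, Alb, Apoa1, Apoa2, Ttr, Apob, Rbp4, Trf), against 43.2 to 548 in the other 7 libraries. Mitochondrial genes took 3.12% of its values, against 1.90 to 2.55% elsewhere. The XX log2 differences of the globin members, the XX shares and the list counts or medians are therefore also given without it. Log2 differences of other single genes in XX include it.

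The beta-type genes lay on chromosome 7 of GRCm38, on the minus strand, with the embryonic genes upstream of the adult ones. Hbb-y (ENSMUSG00000052187.4) spanned 103851749 to 103853216 and Hbb-bh1 (ENSMUSG00000052217.6) spanned 103841637 to 103843164. The adult pair followed, with Hbb-bs (ENSMUSG00000052305.6) at 103826534 to 103828096 and Hbb-bt (ENSMUSG00000073940.3) at 103812524 to 103813996. The alpha-type genes lay on the plus strand of chromosome 11. Hba-x (ENSMUSG00000055609.8) spanned 32276400 to 32278116, Hba-a1 (ENSMUSG00000069919.7) spanned 32283511 to 32284465 and Hba-a2 (ENSMUSG00000069917.7) spanned 32296489 to 32297298.

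The 150 bases before the RefSeq start of 5 of these genes are shown (GRCm38.p6, coding strand, 5′ to 3′), because the embryonic and adult genes and the adult beta pair are set against each other below. Capitals mark 4 motifs on either strand. They are CACCC, the box that KLF1 binds, CCAAT, a common promoter element, GATAA, a motif of GATA1, and ATATAA, a form of the TATA box. The GENCODE spans of these genes begin upstream of the RefSeq start, so the windows overlap them. The first 3 are the most abundant embryonic beta-type gene, the embryonic alpha-type gene and the main adult alpha-type gene, and the last 2 are the adult beta pair.
Hbb-y: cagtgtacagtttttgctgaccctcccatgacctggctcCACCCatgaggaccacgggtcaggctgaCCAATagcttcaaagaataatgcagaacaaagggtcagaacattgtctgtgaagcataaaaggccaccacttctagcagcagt
Hba-x: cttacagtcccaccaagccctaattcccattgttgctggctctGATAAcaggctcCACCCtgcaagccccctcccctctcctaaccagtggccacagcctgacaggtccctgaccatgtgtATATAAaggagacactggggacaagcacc
Hba-a1: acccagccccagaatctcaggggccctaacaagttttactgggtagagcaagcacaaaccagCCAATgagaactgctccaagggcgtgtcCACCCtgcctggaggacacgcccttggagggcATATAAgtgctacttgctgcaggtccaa
Hbb-bt: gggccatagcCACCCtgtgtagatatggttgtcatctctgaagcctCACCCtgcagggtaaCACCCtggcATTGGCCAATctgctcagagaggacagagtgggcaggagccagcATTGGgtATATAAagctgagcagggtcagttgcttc
Hbb-bs: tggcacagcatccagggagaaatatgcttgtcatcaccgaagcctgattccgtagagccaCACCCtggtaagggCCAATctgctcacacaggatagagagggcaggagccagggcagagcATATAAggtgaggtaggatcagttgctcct

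CACCC was found in 6 of the 6 globin windows with a sequence in the table and in 37.4% of 32851 windows of the same length. CCAAT was found in 5 of the 6, all but Hba-x, and in 24.5% of all windows. ATATAA was found in 5 of the 6, all but Hbb-y, and in 5.35% of all windows. GATAA was found in 1 of the 6, Hba-x, and in 13.3% of all windows. Hbb-bt held 3 CACCC and 3 CCAAT matches, of which the CCAAT matches on opposite strands abut, and Hbb-bs held 1 of each. The windows of Hbb-bt and Hbb-bs were identical at 70.9% of aligned positions, with gaps counted as differences. The window of Hba-a2 shared a run of 147 bases with that of Hba-a1.

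Reads of the embryonic genes could be told apart from all other genes, but those of the adult pairs could not always. Every stretch of 100 bases, the read length, in the transcripts of Hbb-y, Hbb-bh1 and Hba-x was found in no other gene. The share of such stretches was 43.5% in Hba-a1 and 25.5% in Hba-a2, and 45.2% in Hbb-bt and 37.4% in Hbb-bs. Over aligned transcripts, with gaps counted as differences, Hba-a1 and Hba-a2 (699 and 554 bases) are 75.1% identical. By the same measure Hbb-bt and Hbb-bs (703 and 628 bases) are 82.3% identical. The sources used here do not give how reads shared by a pair were assigned, so the levels within each adult pair are uncertain.

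Globin transcripts were abundant and unevenly spread over the libraries. The 7 genes took 0.362 and 1.06% of all counts in XY null libraries, against 0.310 and 0.524% in XY wild type libraries. In XX they took 0.605 and 0.562% in null libraries, against 1.03 and 1.25% in wild type libraries. The XY groups overlapped, with null replicate 2 the highest of the 4, and the XX groups did not overlap, with both null libraries lower. The difference of means, null minus wild type, was 0.296 percentage points in XY (exact two-sided permutation test, p = 0.667) and -0.553 in XX (p = 0.333 by the same exact test, the smallest that 2 against 2 allows). Without XX wild type replicate 1 the XX difference was -0.662. In bulk gonads, fewer red cells and less globin RNA per cell cannot be told apart.

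Per kb of the joined exons of each gene Hbb-y was the highest of the 7 in all 8 libraries, and Hba-a2 the lowest. Hbb-y averaged 101924 normalized counts per kb in XY null, 56714 in XY wild type, 85233 in XX null and 183646 in XX wild type libraries. Hba-x averaged 42789, 25138, 37474 and 56572 in the same order of groups, and Hbb-bh1 averaged 31842, 23509.5, 27493 and 34289. Hbb-bh1 was above Hba-x in XY wild type replicate 2 and below it in the other 7 libraries. That exception rests on the length used, since the joined exons of Hba-x have 938 bases and its main transcript 801. Hba-a1 came next below these genes in 7 libraries and stood above Hbb-bh1 in XX wild type replicate 1. The adult beta genes averaged 401 to 4417 normalized counts per kb in a group and changed places with each other between libraries. Hba-a2 averaged 2.31 to 309 per kb.

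**Figure D1:**
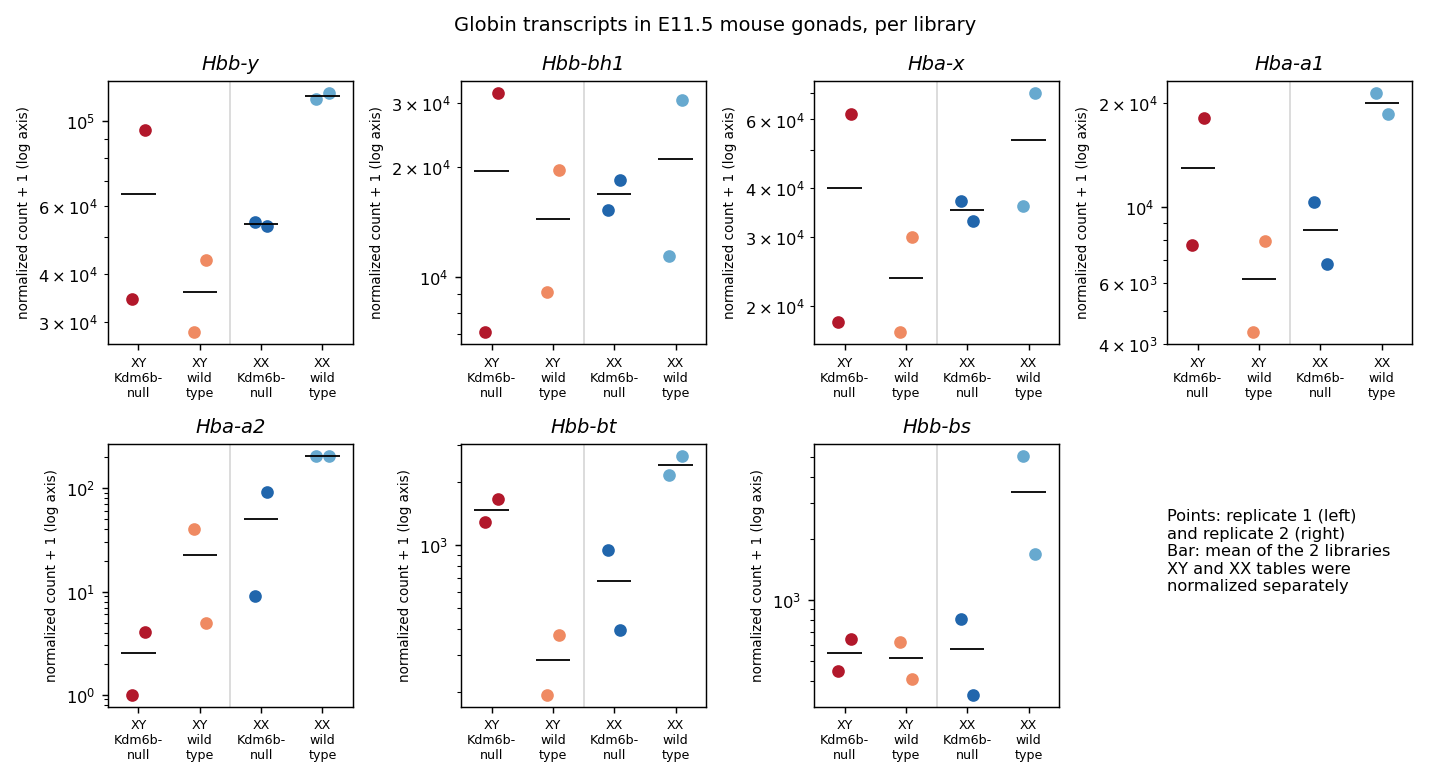
Normalized count plus 1 (log axis) of each of the 7 globin genes in every library, with XY Kdm6b-null, XY wild type, XX Kdm6b-null and XX wild type from left to right; points are libraries and bars the mean of 2. Hbb-bt is higher in both XY null libraries (1289.5 and 1667) than in both XY wild type libraries (193 and 371), and lower in both XX null libraries than in both XX wild type libraries.

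Among the embryonic genes, Hbb-y (the epsilon-type beta chain) had 34426 and 94610.4 normalized counts in XY null libraries, against 28298 and 43502 in XY wild type libraries. The groups overlapped, with null replicate 2 far above the other 3 libraries. On the log2(normalized count + 1) scale the difference was 0.70 ± 0.49 (SE, limma), with an adjusted p of 0.999. In XX it had 54605 and 53299 in null libraries, against 114162 and 118333 in wild type libraries. Here the groups did not overlap, the 2 libraries of each group lay close, and the null mean was 2.15-fold lower. The XX log2 difference was -1.11 ± 0.23 (SE, limma) with an unadjusted p of 0.0038 and an adjusted p of 0.261, so it did not pass the threshold of 0.05 over all genes. The authors' deposited table gives Hbb-y in XX a log2 fold change of -1.11 with an adjusted p of 1.3e-19.

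Hba-x (the zeta chain, the embryonic alpha-type chain) had 18197 and 62075 normalized counts in XY null libraries, against 17153 and 30007 in XY wild type libraries. In XX it had 37223 and 33077 in null libraries, against 35994 and 70134 in wild type libraries. Both pairs of groups overlapped, and in each sex 1 library, XY null replicate 2 and XX wild type replicate 2, was the highest. The log2 differences were 0.57 ± 0.60 in XY (adjusted p = 0.999) and -0.52 ± 0.35 in XX (SE, limma, adjusted p = 0.527).

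Hbb-bh1 (the beta H1 chain, used earliest in yolk sac red cells) had 7076 and 31963 normalized counts in XY null libraries, against 9127 and 19696 in XY wild type libraries. In XX it had 15248 and 18458 in null libraries, against 11461 and 30577 in wild type libraries. The null and wild type libraries overlapped in both sexes, and the wild type pair lay on both sides of the null pair in XX. The log2 differences were 0.17 ± 0.74 in XY (adjusted p = 0.999) and -0.16 ± 0.46 in XX (SE, limma, adjusted p = 0.900). The 95% intervals ran from -1.69 to 2.02 in XY and from -1.32 to 1.00 in XX, so in XY differences of more than 2-fold in either direction lie within the interval.

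The balance between the embryonic beta-type genes was read within each library. Hbb-bh1 made up 17.0 and 25.3% of the Hbb-y and Hbb-bh1 counts in XY null libraries, against 24.4 and 31.2% in XY wild type libraries. It made up 21.8 and 25.7% in XX null libraries, against 9.12 and 20.5% in XX wild type libraries. The XY groups overlapped, whereas both XX null libraries were above both XX wild type libraries. The difference of means was -6.63 percentage points in XY (exact permutation p = 0.667) and 8.95 in XX (exact permutation p = 0.333, the smallest possible). Without XX wild type replicate 1, the library with the liver and yolk sac genes, the XX difference was 3.24.

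Among the adult genes, Hba-a1 (an adult alpha chain) had 7728 and 18189.8 normalized counts in XY null libraries, against 4329.9 and 7984 in XY wild type libraries. The XY groups overlapped by a little, with null replicate 1 below wild type replicate 2. In XX it had 10338 and 6835 in null libraries, against 21443 and 18671 in wild type libraries, and these groups did not overlap. The log2 differences were 1.01 ± 0.46 in XY (adjusted p = 0.999) and -1.25 ± 0.23 in XX (SE, limma, adjusted p = 0.261). In XX the null mean was 2.34-fold lower. The authors' deposited table gives a log2 fold change of -1.22 in XX with an adjusted p of 1.3e-06.

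Hba-a2, the second adult alpha gene, was listed at 0 and 3.09 normalized counts in XY null libraries, against 39.6 and 3.99 in XY wild type libraries. A value of 0 in XY null replicate 1 allows up to 2.93 normalized counts. In XX it had 7.97 and 90.9 in null libraries, against 207 and 205 in wild type libraries. The null libraries lay below the wild type libraries in both sexes, but in XY 3 of the 4 libraries were at or near the limit. The fitted XY log2 difference of -2.81 rests on the pseudocount of 1 and was -3.32 with 0.5 and -1.20 with 10. In XX it was -2.85 ± 1.05 (SE, limma, adjusted p = 0.339). Since Hba-a2 shares most stretches of read length with Hba-a1, these values may miss reads of the gene.

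Hbb-bt (the t chain of the adult beta pair) had 1289.5 and 1667 normalized counts in XY null libraries, against 193 and 371 in XY wild type libraries. Both null libraries were above both wild type libraries, and the null mean was 5.25-fold higher. The XY log2 difference was 2.45 ± 0.32 (SE, limma, 95% interval 1.66 to 3.24), with an unadjusted p of 3.7e-04 and an adjusted p of 0.215. In XX Hbb-bt had 953 and 392 in null libraries, against 2162 and 2670.4 in wild type libraries. Here both null libraries were below both wild type libraries, and the null mean was 3.59-fold lower. The XX log2 difference was -1.97 ± 0.41 (SE, limma, adjusted p = 0.261). The authors' deposited table gives 2.39 in XY with an adjusted p of 5.4e-04 and -1.85 in XX with an adjusted p of 0.0780.

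Hbb-bs, which encodes the s chain, is the partner of Hbb-bt. It had 449 and 643 normalized counts in XY null libraries, against 623 and 411 in XY wild type libraries. These groups overlapped, and the log2 difference was 0.09 ± 0.26 (SE, limma, adjusted p = 0.999). In XX it had 806 and 342 in null libraries, against 5101 and 1683 in wild type libraries. The XX groups did not overlap, and XX wild type replicate 1 held more than 3 times the level of replicate 2. The XX log2 difference was -2.48 ± 0.62 (SE, limma, adjusted p = 0.270).

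Within the adult beta pair, Hbb-bt made up 74.2% (95% Wilson interval 72.1 to 76.2%) and 72.2% (70.3 to 74.0%) of the counts in XY null libraries. In XY wild type libraries it made up 23.6% (20.9 to 26.7%) and 47.4% (44.0 to 50.9%). It made up 54.2% (51.8 to 56.5%) and 53.4% (49.7 to 57.0%) in XX null libraries, against 29.8% (28.7 to 30.8%) and 61.3% (59.9 to 62.8%) in XX wild type libraries. Both null pairs lay close together, while the libraries of each wild type group differed by far more than the intervals, which cover counting error only. The XY difference was 37.6 percentage points, with no overlap (exact permutation p = 0.333, the smallest possible). The XX difference was 8.22 (exact permutation p = 1.0) and was -7.57 without XX wild type replicate 1. Over both sexes, permuting genotype within sex, the mean difference was 22.9 percentage points (exact permutation p = 0.167).

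The adult alpha pair was one-sided in every library. Hba-a2 made up 0 and 0.0170% of the Hba-a1 and Hba-a2 counts in XY null libraries, against 0.906 and 0.0499% in XY wild type libraries. It made up 0.0771 and 1.31% in XX null libraries, against 0.955 and 1.09% in XX wild type libraries. XY libraries were lower than XX libraries on average within genotype, by 0.615 percentage points (exact permutation p = 0.0556, the smallest that 36 arrangements allow), and by 0.648 without XX wild type replicate 1. Given the shared sequence, this share describes the counted reads and not the use of the genes.

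**Figure D2:**
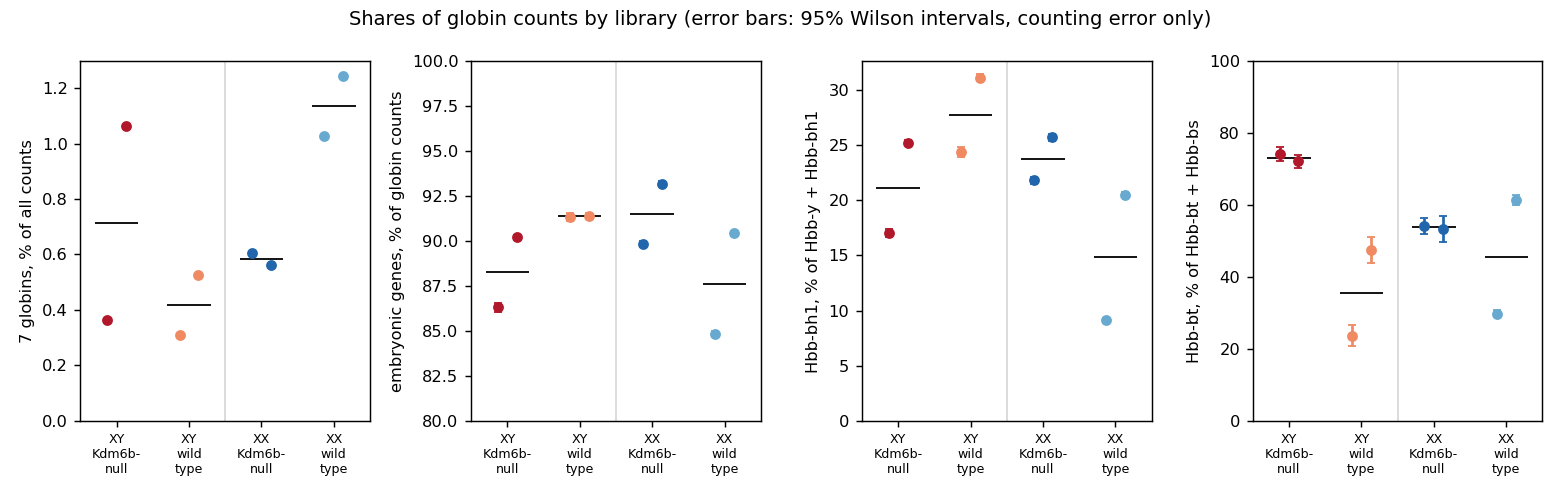
Shares of counts in each library, in percent: the 7 globins of all counts, the embryonic genes of the globins, Hbb-bh1 of the embryonic beta pair, and Hbb-bt of the adult beta pair; groups run XY Kdm6b-null, XY wild type, XX Kdm6b-null, XX wild type. Bars are means of 2 libraries, error bars 95% Wilson intervals, and the axis of the embryonic share starts at 80%. Hbb-bt makes up 74.2 and 72.2% of its pair in XY null libraries, above all other libraries.

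Embryonic genes made up most of the globin counts everywhere. Hbb-y, Hbb-bh1 and Hba-x together took 86.3 and 90.2% of the globin counts in XY null libraries, against 91.3 and 91.4% in XY wild type libraries. They took 89.8 and 93.2% in XX null libraries, against 84.8 and 90.4% in XX wild type libraries. The embryonic share was lower in both XY null libraries than in both XY wild type libraries, by 3.11 percentage points (exact permutation p = 0.333, the smallest possible). In XX the groups overlapped and the null mean was 3.90 percentage points higher (exact permutation p = 0.667). Without XX wild type replicate 1, which had the lowest embryonic share, the XX difference was 1.11. The adult genes thus took 6.81 to 15.2% of globin counts.

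Beta-type genes took 62.5 and 61.6% of the globin counts in XY null libraries, against 64.0 and 62.7% in XY wild type libraries. They took 60.1 and 64.4% in XX null libraries, against 69.7 and 63.3% in XX wild type libraries. Both XY null libraries lay below both XY wild type libraries by a small margin, and the XX groups overlapped. Null minus wild type was -1.29 percentage points in XY (exact permutation p = 0.333, the smallest possible) and -4.24 in XX (exact permutation p = 0.667). The XX difference was -0.997 without XX wild type replicate 1. Among the embryonic genes alone the XY difference was 0.118, so its sign turned on the adult genes.

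**Figure D3:**
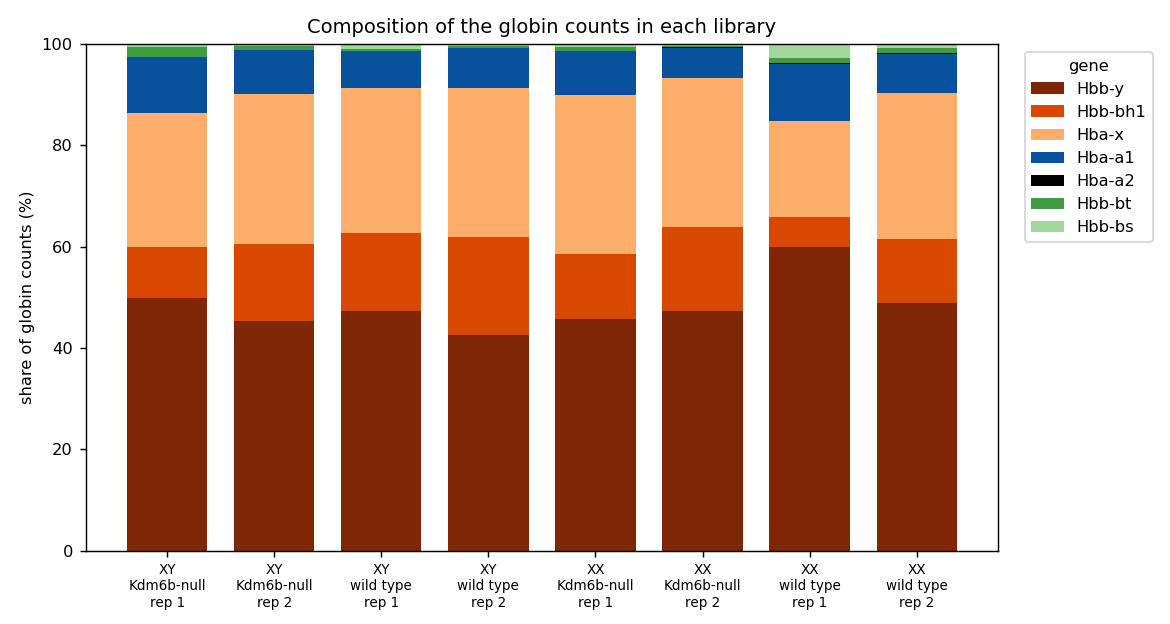
Share of each gene in the globin counts of every library, in percent, with Hbb-y at the bottom and Hbb-bs at the top of each bar, for XY Kdm6b-null, XY wild type, XX Kdm6b-null and XX wild type libraries. The 3 embryonic genes fill 84.8 to 93.2% of each bar, and XX wild type replicate 1 has the largest part of Hbb-y (59.9%) and of Hbb-bs (2.68%).

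Taken by comparison, 6 of the 7 members were higher in XY null on average and 1, Hba-a2, was lower, with a median log2 difference of 0.57 against -0.00 over all 16821 genes tested. No member passed the adjusted threshold in limma, nor did any other gene (0% called, smallest adjusted p 0.117). At an unadjusted limma p under 0.05, 1 of the 7 was higher, against 2.11% of all genes. The groups did not overlap for 1 member higher in null (Hbb-bt, background 16.6%) and 1 lower (Hba-a2, background 16.3%), so 5 of the 7 overlapped. The authors' deposited table called only Hbb-bt higher, where 0.123% of genes were. Without XY null replicate 2, the library with the most globin counts in XY, Hbb-y, Hbb-bh1, Hba-x and Hbb-bs stood at -0.027, -0.92, -0.32 and -0.17 on the log2 scale and Hbb-bt at 2.26.

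In XX, 7 of the 7 members were lower in null on average, with a median log2 difference of -1.25 against 0.00 over all 17028 genes. Again 0% of genes passed the adjusted threshold in limma (smallest adjusted p 0.105). At an unadjusted p under 0.05, 5 of the 7 were lower, against 4.65% of all genes. The same 5 (Hbb-y, Hba-a1, Hba-a2, Hbb-bt, Hbb-bs) did not overlap, where 22.5% of all genes did not overlap in that direction. The authors' deposited table called 2 members lower, Hbb-y and Hba-a1, where 0.823% of genes were. Without XX wild type replicate 1 the log2 differences were -1.13 for Hbb-y, -0.87 for Hbb-bh1, -0.999 for Hba-x, -1.15 for Hba-a1, -2.84 for Hba-a2, -2.13 for Hbb-bt and -1.68 for Hbb-bs. In that limma fit the lone wild type library is taken to vary like the null libraries, so its calls are not read as results about the members. Without XX wild type replicate 2 instead, Hba-x stood at -0.037 and Hbb-bh1 at 0.55 on the log2 scale.

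The genotype difference was then compared between the sexes in 1 limma fit of the 8 libraries. The XY difference exceeded the XX difference for 7 of the 7 members, with a median of 1.81 on the log2 scale against -0.02 over 16943 genes. No gene passed the adjusted threshold (0% called, smallest adjusted p 0.238), and 4 members had an unadjusted p under 0.05, against 8.41% of all genes. Hbb-bt differed most, by 4.42 ± 0.61 (SE, 95% interval 3.01 to 5.84, unadjusted p = 1.1e-04, adjusted p = 0.281). Hbb-bs differed by 2.56, Hba-a1 by 2.26 and Hbb-y by 1.81, each with an adjusted p of 0.568. Hbb-bt was also the 1 member that was higher in both XY null libraries and lower in both XX null libraries, a pattern found in 2.59% of genes. Without XX wild type replicate 1 the differences between the sexes were 4.58 for Hbb-bt, 1.76 for Hbb-bs, 2.16 for Hba-a1 and 1.84 for Hbb-y.

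**Figure D4:**
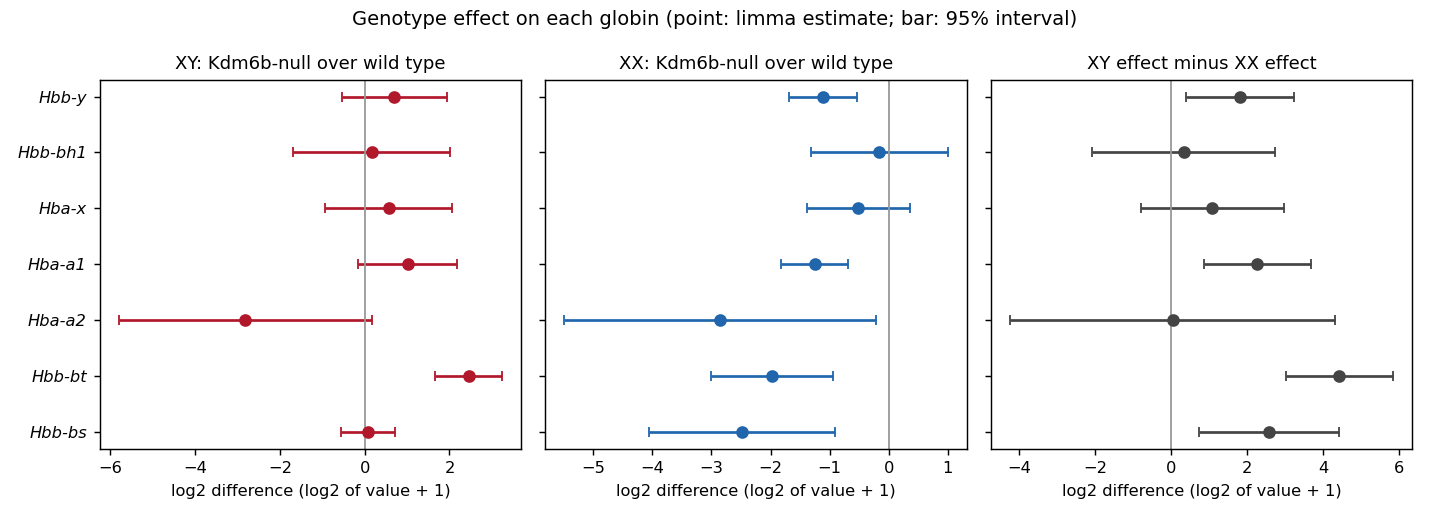
Log2 difference of each globin gene, Kdm6b-null over wild type in XY (left) and in XX (middle), and the XY minus the XX difference (right), on the log2(normalized count + 1) scale; points are limma estimates and bars 95% intervals. Hbb-bt lies at 2.45 in XY and at -1.97 in XX, and all 7 XX estimates are below 0.

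The globins moved from library to library together with Alas2, the first enzyme of haem synthesis in red cells. The 7 globins summed to 69165 and 209152 normalized counts in XY null, 59764 and 101975 in XY wild type, 119181 and 112496 in XX null and 190529 and 242274 in XX wild type libraries. Alas2 had 584 and 1597 in XY null, 562 and 887 in XY wild type, 1145 and 925 in XX null and 1569.7 and 2101 in XX wild type libraries. Summed globins thus spanned 4.05-fold over the 8 libraries, whereas globins per count of Alas2 lay between 104.1 and 130.9, a span of 1.26-fold. Adult globins per count of Alas2 were less even. They stood at 16.2 and 12.8 in XY null, 9.23 and 9.88 in XY wild type, 10.6 and 8.28 in XX null and 18.4 and 11.1 in XX wild type libraries. XX wild type replicate 1 also departed from the others against Gata1, with 2846 globin counts per count of Gata1, where the other 7 libraries had 906 to 1278.

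Genes with a mean of at least 50 normalized counts were compared, without the members and without clone and model names such as Gm and Rik. Each sex was centred on its own mean. Of these 12345 genes, 10 followed the summed globins most closely in log2 value over the 8 libraries, with Pearson r of 0.949 to 0.990. They were Alas2 (0.990), Blvrb, a reductase abundant in red cells (0.981), Fech, the enzyme that puts iron into haem (0.980), Mt1, a metallothionein (0.966), and Arhgdib (0.963). Akip1 (0.962), Epb42, a red cell membrane protein (0.960), Kel, a red cell surface protein (0.956), Gnptab (0.956) and Mtmr7 (0.949) followed. Among the members, Hbb-y went with Hba-a1 (r = 0.956) and Hbb-bh1 with Hba-x (r = 0.923), while Hba-a2 had r between -0.25 and 0.40 with the other 6. These r describe 8 libraries that share a group structure and, within a gene pair, reads.

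**Figure D5:**
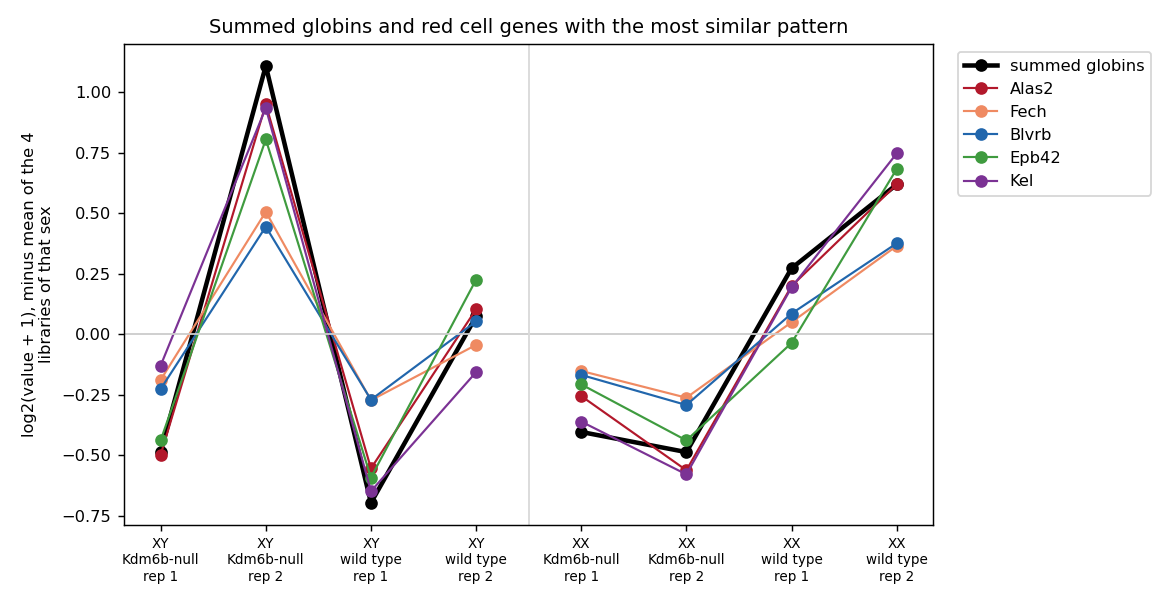
Log2(normalized count + 1) of the summed globins and of the red cell genes Alas2, Fech, Blvrb, Epb42 and Kel in each library, minus the mean of the 4 libraries of that sex. Lines join values for reading only. XY null replicate 2 is the highest XY library and XX wild type replicate 2 the highest XX library for all 6 curves.

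Genes for proteins that act on the globin genes did not pass the limma threshold in either sex, nor did any other gene (0% called). Of 17 globin regulators, 12 were positive and 5 negative in XY (median log2 difference 0.03), and 9 were positive and 8 negative in XX (median 0.02). In XX 5 were positive and 12 negative (median -0.09) without XX wild type replicate 1. Gata1 had 59.5 and 164 normalized counts in XY null libraries, against 54.4 and 97.7 in XY wild type libraries, and 132 and 105 in XX null libraries, against 66.9 and 201 in XX wild type libraries. It overlapped in both sexes, with log2 differences of 0.43 and 0.02. Klf1 stood at 0.45 in XY and -0.30 in XX, and Tal1, a partner of GATA1, at 0.08 and -0.35. Bcl11a, a repressor of embryonic beta-type genes, stood at -0.09 and 0.22. In XX wild type replicates 1 and 2, Klf1 had 77.6 and 186 normalized counts, Tal1 418 and 741, and Bcl11a 656 and 1347. For Gata1 and these genes both XX null libraries lay between the XX wild type libraries. Without XX wild type replicate 1 all of them were thus lower in XX null. The smallest limma p in XY were those of Lmo2 (-0.19), Sox6 (-0.15) and Ldb1 (0.09), of which Lmo2 and Ldb1 join the GATA1 complex and Sox6 represses Hbb-y. In XX they were those of Zfpm1, which encodes the GATA1 cofactor FOG1 (0.77), Klf13 (0.47) and the chromatin remodeller Chd4 (0.54). The authors' deposited table calls Zfpm1 (adjusted p = 0.0068) and Chd4 (adjusted p = 0.0370) higher in XX null, where 1.95% of genes were. XX wild type replicate 1 was the lowest XX library for both, at 736 and 13558 normalized counts. Which cells of the bulk gonads held these transcripts was not tested.

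Haem synthesis and iron genes were described in the same way. Of 12 haem genes tested, 8 were positive and 4 negative in XY (median 0.10), and 4 were positive and 8 negative in XX (median -0.09, or -0.26 without XX wild type replicate 1). In XY the smallest limma p were those of Alad (-0.36), Ppox (0.22) and Fech (0.32), which are enzymes of the haem pathway, and Alas2 stood at 0.45. In XX they were those of Alas2 (-0.82), Alad (0.38) and Blvrb (-0.46), and the authors' deposited table calls Alas2 lower (adjusted p = 0.0050). Of 8 iron uptake genes, 4 were positive and 4 negative in XY (median 0.02), and 3 were positive and 5 negative in XX (median -0.16, or -0.26 without XX wild type replicate 1). Tfrc, the transferrin receptor, stood at -0.19 in XY and -0.43 in XX, Slc25a37, the mitochondrial iron carrier, at 0.41 in XY, Abcb10 at 0.24 in XY, Slc11a2 at 0.21 in XX and Fth1, a ferritin chain, at -0.16 in XX.

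Most genes of the red cell body were positive in XY and negative in XX, as most globins were. Of 8 red cell enzyme genes tested, 6 were positive in XY (median 0.13). In XX 6 were negative (median -0.33, or -0.23 without XX wild type replicate 1). Ube2l6 (0.44), Nt5c3 (-0.14) and Bpgm, which makes 2,3-bisphosphoglycerate (0.15), led in XY by limma p, and Gpx1 (-0.36), Nt5c3 (-0.29) and Bpgm (-0.44) in XX. Of 19 membrane and receptor genes, 17 were positive in XY (median 0.37) and 15 negative in XX (median -0.31). All 19 were negative in XX without XX wild type replicate 1 (median -1.02). Cd59a, a complement inhibitor (0.62), Kel (0.81) and Ermap (0.79) led in XY, and Xk (-0.86), Kel (-0.94) and Trim58 (-1.31) in XX. Of these, the authors' deposited table calls Kel lower in XX null (adjusted p = 0.0087). In limma 0 of these genes passed the adjusted threshold in either sex, as did 0% of all genes.

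Markers of other cell types differed between the groups as well. The 10 endothelial genes summed to 17234 and 16037 normalized counts in XY null, 16499 and 21763 in XY wild type, 19115 and 18943 in XX null and 12869 and 14132 in XX wild type libraries, all detected. In XX the endothelial sum was thus higher in null libraries, where Hbb-y was lower, and 10 of the 10 genes were positive (median 0.39, or 0.37 without XX wild type replicate 1). The 10 macrophage genes summed to 3073 and 3310.2 in XY null, 2454 and 2585 in XY wild type, 2810.1 and 2408 in XX null and 3299 and 2729 in XX wild type libraries, all detected. In XY 8 of the 10 were positive (median 0.36) and in XX 9 were negative (median -0.27), the signs of Hbb-bt. In XX 5 were negative without XX wild type replicate 1 (median -0.01). The 8 liver and yolk sac genes summed to 253 and 43.2 in XY null, 237 and 83.7 in XY wild type, 126 and 129 in XX null and 15224 and 548 in XX wild type libraries, with Alb at 0 in XY null replicate 2. In XX 8 of the 8 were negative (median -4.13), and 6 without XX wild type replicate 1 (median -2.12). The liver marker Afp had 43.8 and 56.6 in XX null libraries, against 11142 and 149.7 in XX wild type libraries. The 6 germ cell genes (Dppa3, Pou5f1, Dnd1, Dppa5a, Ddx4, Tfap2c) were all positive in XY (median 0.46), and 5 were negative in XX (median -0.45), where 2 were without XX wild type replicate 1 (median 1.39). Their sum was 950.1 and 953 in XY null, 416 and 1047 in XY wild type, 446 and 392 in XX null and 1559 and 204 in XX wild type libraries. The 6 somatic gonad genes ran the other way, with 5 negative in XY (median -0.43) and 5 positive in XX (median 0.31, or 0.40 without XX wild type replicate 1). Megakaryocyte and platelet genes were positive for 7 of 8 in each sex (medians 0.13 and 0.32). For 5 blood progenitor genes the count was 3 in XY and 4 in XX (medians 0.21 and 0.14). Mesonephros genes had 2 of 5 in XY and 5 of 5 in XX (medians -0.14 and 0.57). Mast cell and neutrophil genes had 3 of 3 in XY and 2 of 4 in XX (medians 1.21 and -0.24). Without XX wild type replicate 1 the XX counts were 4, 3, 5 and 3 in this order (medians 0.00, 0.23, 0.83 and 1.25). The part of these cells in the globin differences was not tested.

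The remaining genes of the globin clusters were low. Hbb-bh0 had 4.88 and 17.5 normalized counts in XY null libraries, against 33.6 and 36.9 in XY wild type libraries, and 31.9 and 30.3 in XX null libraries, against 34.9 and 40.5 in XX wild type libraries. Hbq1b, a theta-type alpha gene, had 27.3 and 55.6 in XY null libraries, against 21.8 and 20.9 in XY wild type libraries, and 31.9 and 28.3 in XX null libraries, against 39.8 and 69.8 in XX wild type libraries. Hbb-bh0 was lower and Hbq1b higher in both XY null libraries, as were 16.3% and 16.6% of all genes. Both were lower in both XX null libraries, as were 22.5% of all genes. Their levels were far below those of the 6 abundant members. Hbb-bh2 ranged from 0.970 to 8.23 and Hbq1a from 0 to 9.70, and Hbb-bh3 was at 0 in all 8 libraries. Of the globins of other cells, Cygb, a cytoglobin of many tissues, ranged from 62.8 to 164, Ngb, the globin of neurons, from 2.93 to 13.6, and Mb, the globin of muscle, from 0 to 6.92.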

How the data were processed

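Per the labels' protocols, polyadenylated RNA of untreated gonads was sequenced with paired reads of 100 bases, and 2 pairs of gonads were pooled per library. The growth protocol speaks of 4 samples, whereas 8 are listed, and all 8 were used. Per the submitters' processing notes, the authors used GRCm38 with cutadapt 4.9, then STAR 2.7.11 and featureCounts 2.0.8, and DESeq2 2.11.40.8. The sources used here do not give strand and multimapping settings. The signal deposited by the authors is a count per gene scaled with 1 size factor per library, XY and XX apart (normalized count). The authors' deposited tables also give log2 fold changes, p-values and adjusted p-values, and a Wald score that was not used. In every library 100% of nonzero values were whole multiples of 1 step (tolerance 1e-06), which was read as 1 count for depths, Wilson intervals (95%) and the limit at 0. Intervals and limits cover counting error only, as reads carry no molecular identifiers.

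The value log2(normalized count + 1) was tested with limma 3.58.1 under R 4.3.3 and a variance trend, for genes with a mean of at least 10, with Benjamini-Hochberg adjustment over all genes. All 7 members passed this filter in each fit, and each sex was fitted alone. A fold change on this scale understates that of low genes. The fit was tested on simulated data. Shares were tested by exact two-sided permutation over libraries, which cannot reach 0.05 (smallest p 0.333, or 0.0556 within strata). Positions and transcripts are from GENCODE vM21, where 40606 of 48440 gene IDs matched, and upstream windows from RefSeq, where 6 of the 7 members matched and Hbb-bh1 is not analysed here. The members, marker lists and tests were chosen with earlier results of these data known, and the Hbb-bh1 share and the list counts without XX wild type replicate 1 were added after seeing the data. The rule named all members, other globins, for each red cell list the 3 genes with the smallest p per sex, Gata1, Klf1, Tal1, Bcl11a, Alas2 and Ahsp, and the 10 genes most like the summed globins. Ahsp, found under no symbol, is not analysed here, and Fth1, a repeated symbol, is its most abundant entry.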

Additional observations from a re-analysis of the deposited data

Results flagged for a closer look

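Hbb-bt, the t chain of the adult beta pair, was flagged because its groups did not overlap in either sex and differed in opposite directions. By sign alone, Hbb-y, Hbb-bh1, Hba-x, Hba-a1 and Hbb-bs were also positive in XY and negative in XX. Hbb-bt was higher in 2 of 2 XY null libraries than in both XY wild type libraries. It was lower in 2 of 2 XX null libraries than in both XX wild type libraries. This pattern was found in 2.59% of 16943 genes, among them the low globin gene Hbq1b. The XY minus XX difference of Hbb-bt was 4.42 on the log2 scale in limma. It had an unadjusted p of 1.1e-04 and an adjusted p of 0.281 over all genes, so it did not pass the correction. It lay between 3.78 and 5.06 when each library was left out in turn. Its partner Hbb-bs had a difference of 2.56 (adjusted p = 0.568).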

How the results depend on the processing

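Without each library in turn (1 library then stands for its group and is assumed to vary like the others), limma calls ranged from 0 to 2 genes in XY, 0 to 3550 in XX and 0 to 43 for the difference between the sexes; 621 came without XX wild type replicate 1, 3550 without XX wild type replicate 2, and the 43 also without XX wild type replicate 2. In XY, log2 differences ranged from -0.027 to 1.43 for Hbb-y, -0.92 to 1.25 for Hbb-bh1, -0.32 to 1.45 for Hba-x, 0.39 to 1.63 for Hba-a1, -4.33 to -1.80 for Hba-a2 and -0.21 to 0.39 for Hbb-bs. In XX, Hbb-bh1 ranged from -0.87 to 0.55, the upper value without XX wild type replicate 2, Hba-x from -1.0 to -0.037, Hba-a2 from -4.53 to -1.17 and Hbb-bs from -3.28 to -1.68. Between the sexes Hbb-bh1 ranged from -0.76 to 1.41 and Hba-a2 from -1.64 to 1.71. Hbb-bt kept its direction throughout, at 1.98 to 2.92 in XY and -2.61 to -1.33 in XX. Hba-a2 had no XY value without XY wild type replicate 1, where its mean was below 10.

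Shares moved likewise, in percentage points. The globin share of all counts ranged from -0.0549 to 0.646 (XY null minus wild type), -0.221 to 0.480 (XY minus XX in null) and -0.304 to 0.0467 (null minus wild type within sex). The embryonic share ranged from -1.0 to 1.79 (null minus wild type within sex) and -1.16 to 1.64 (XY minus XX within genotype). The beta-type share ranged from -2.37 to 1.98 (XY minus XX in null) and -6.38 to 0.104 (in wild type), and among embryonic genes alone was 0.118 in XY and 1.46 for XY minus XX in null. The Hbb-bt share of its pair ranged from -7.57 to 24.0 in XX, -25.8 to 5.78 (XY minus XX in wild type) and -3.19 to 12.6 (within genotype). The Hba-a2 share ranged from -0.944 to 0.292 in XX, and the Hbb-bh1 share from -6.73 to 1.48 (XY minus XX in null) and -1.69 to 4.01 (null minus wild type within sex).

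With all libraries, calls were 1 in XY without the variance trend and 10 in XX from 1 fit of all 8 libraries. With a pseudocount of 0.5 the Hba-a2 difference between the sexes was -0.43. With a replicate block, limma calls were 23 in XY and 2 in XX. Hba-a1 (adjusted p = 0.0463) and Hbb-bt (0.0031) in XY and Hbb-bs (0.0168) in XX then passed. The labels do not say that equal replicate numbers pair the samples. Deviations of same-numbered libraries correlated at 0.24 in XY and -0.06 in XX, but only 2 pairs per sex cannot settle whether they are paired. The other 157 log2 values kept their direction and their side of the threshold under the remaining alternatives with all libraries. The cause of these shifts was not tested.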
